A study of Mus musculus with 6 samples.

Results

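The genes described here are Spp1, Apoe, Cd9, Lpl, Cst7, Itgax, Clec7a, Cd68, Gpnmb and Lgals3, which mark activated phagocytes of the brain. They were chosen by symbol from the known genes of disease-associated microglia, by a rule that uses no measured level but with earlier results of these data known, and all 10 were found among the 35148 genes of the deposited table. The table holds 6 RNA-seq libraries from the paraventricular nucleus of the hypothalamus (PVH) of mice. All mice carried floxed Ruvbl2 (Ruvbl2fl/fl), a gene for an AAA+ ATPase that Cre recombinase can then delete. In 3 libraries the PVH had received AAV2-GFP, an adeno-associated virus with green fluorescent protein alone, and in the other 3 it had received AAV2-Cre-GFP, which also carries Cre. Tissue was taken 8 weeks after infection. The labels give no sex, age, promoter of the virus or number of animals per library, and p-values therefore measure only the spread between these libraries.

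Microglia are the resident macrophages of the brain. When neurons degenerate or debris builds up, a fraction of them lowers its resting genes. These cells turn on a programme of lipid handling, lysosomal digestion and adhesion, known as the disease-associated state. That state depends in part on the receptor TREM2 and its adaptor TYROBP. Spp1 encodes osteopontin, a secreted phosphoprotein that binds integrins and CD44, and it is also made by epithelial cells of the kidney. Apoe is made mainly by astrocytes in the resting brain, and Cd9 and Lpl are also expressed outside phagocytes, so that a change of these genes in whole tissue does not by itself name a cell type.

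Several facts of the libraries bear on these genes. Total counts ran from 41890769 to 54702785 per library. Ruvbl2, the targeted gene, stood at 9.90, 7.36 and 8.72 FPKM (fragments per kilobase of gene, scaled to the size of the library) in the libraries labelled AAV2-GFP and at 9.53, 9.10 and 9.51 FPKM in those labelled AAV2-Cre-GFP. The level over the whole gene was thus not lower under the Cre label, and the groups are called GFP-labelled and Cre-labelled. Markers of the PVH were present in each library, Oxt among them at 56.2 to 587 FPKM. The Cre-labelled libraries 2 and 3 stand apart in kidney transcripts: 30 kidney genes summed to 486 and 512 FPKM there and to between 81.2 and 115 FPKM in the other 4 libraries. Among signs of RNA quality, the more abundant of 2 gene models named CT010467, of ribosomal RNA, stood at 972 to 1037 FPKM in the GFP-labelled and 3399 to 8246 FPKM in the Cre-labelled libraries. The list of such signs held 5 gene names with 6 tested entries, since CT010467 has 2 models. All 6 were higher under the Cre label, and their sum was highest in Cre-labelled library 1. That sum was 11709, 9153 and 5822 FPKM in Cre-labelled libraries 1, 2 and 3, against 3081 to 3473 FPKM in the GFP-labelled libraries. DESeq2 called 5 of the 6 entries higher, both CT010467 models included, beside 2.85% of all genes. Their part in the levels of the 10 genes was not tested. Fewer cells of a type and less RNA per cell cannot be told apart in tissue RNA.

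None of the 10 genes passed the test between the labels, in which edgeR's quasi-likelihood test on the counts with Benjamini-Hochberg adjustment over 20865 genes called 0.00959% of genes at 0.05. Of the 10 genes, 8 had a higher fitted level under the Cre label, as had 49% of all genes tested, and 2 a lower one. At an unadjusted p under 0.05, 4 of them (Spp1, Cd9, Lgals3 and Lpl) were higher and 0 lower, against 8.11% of all genes higher and 9.11% lower. DESeq2, which called 6.88% of all genes (2.85% higher and 4.03% lower), called 2 of the 10, Spp1 and Cd9, both higher. The median log2 difference of the 10 genes was 0.50, beside -0.01 over all genes tested. In FPKM, every Cre-labelled library was above every GFP-labelled library for 5 genes, Spp1, Cd9, Cd68, Lgals3 and Clec7a, a pattern shown by 14.1% of all genes tested. The opposite order was shown by 0 of the 10 and by 8.8% of all genes.

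**Figure D1:**
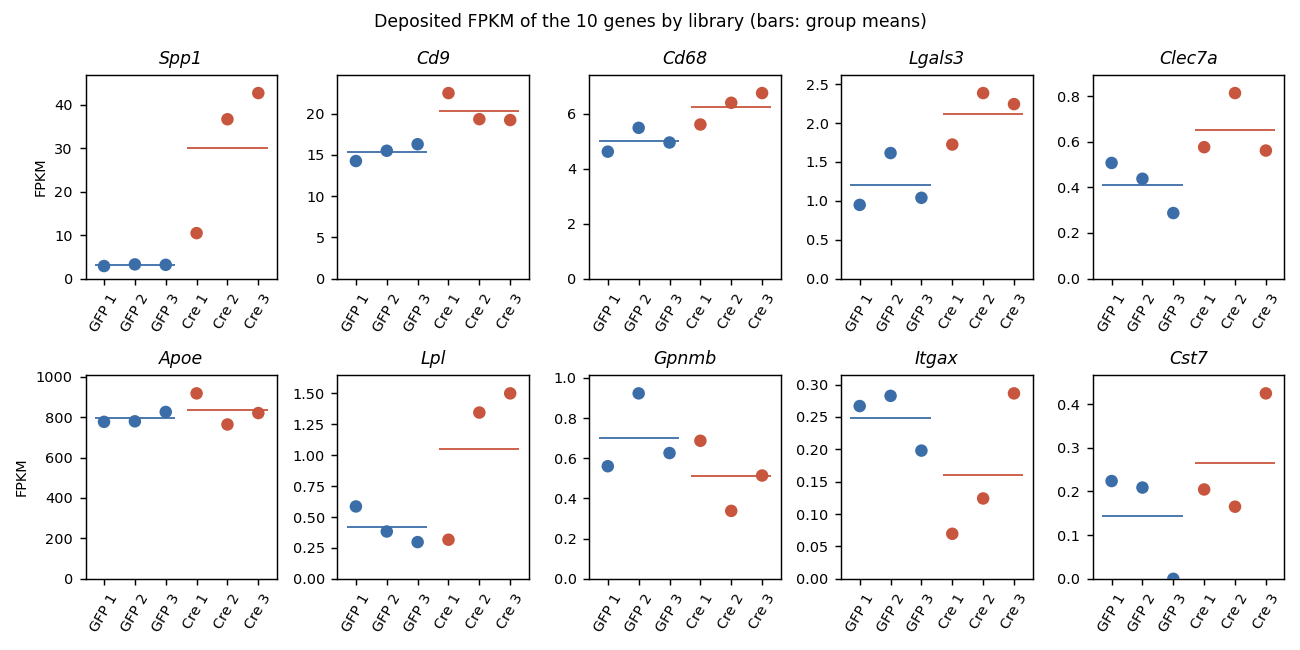
Deposited FPKM (vertical axes, each from 0) of the 10 genes in the 6 libraries (horizontal axes), with GFP-labelled libraries in blue, Cre-labelled in red and bars at the group means. Spp1 runs from 2.87 to 3.25 FPKM in the GFP-labelled libraries and reaches 10.5, 36.7 and 42.7 in the Cre-labelled ones, while Apoe overlaps between the groups.

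Spp1 (ENSMUSG00000029304, chromosome 5, 104435118 to 104441050, plus strand) had the largest difference of the 10 genes. It stood at 2.87, 3.25 and 3.15 FPKM in GFP-labelled libraries 1, 2 and 3, against 10.5, 36.7 and 42.7 FPKM in Cre-labelled libraries 1, 2 and 3. The GFP-labelled libraries lay close together, all Cre-labelled libraries were above them, and Cre-labelled library 1 was well below the other two. The counts behind these values were 241, 260 and 297 against 835, 3174 and 4474. The group means were 3.09 ± 0.197 and 29.9 ± 17.1 FPKM (SD, n = 3 each), and the coefficient of variation was 6.37% under the GFP label and 57.3% under the Cre label. The fitted log2 difference was 3.24 ± 0.48 (SE), with a 95% interval from 2.13 to 4.35 and an adjusted p of 0.0705 in edgeR. DESeq2 gave an adjusted p of 5.98e-06 for the same counts. A gene model that lies inside Spp1 on the same strand, Gm42793, spans 21.1% of the gene, shares 14.3% of the 31-base words of the Spp1 transcripts, and held at most 6 counts in a library.

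The high levels of Spp1 in Cre-labelled libraries 2 and 3 coincided with those of kidney genes, and the level in Cre-labelled library 1 did not. Relative to the mean of the GFP-labelled libraries, Spp1 was 3.38-fold in Cre-labelled library 1, 11.9-fold in library 2 and 13.8-fold in library 3. The median of 26 kidney genes with no library at 0 was 0.795, 11.97 and 12.7 on the same scale. Umod, which encodes uromodulin of the thick ascending limb, stood at 2.43, 1.42 and 1.76 FPKM in the GFP-labelled libraries and at 0.864, 34.0 and 37.2 FPKM in the Cre-labelled ones. Kap, a kidney androgen-regulated gene, showed the same order, with 25.0, 10.4 and 15.5 against 6.26, 218 and 231 FPKM. In Cre-labelled library 1, 12 of the 30 kidney genes were below every GFP-labelled library and 7 above, while Spp1 was above all 3. The order of Spp1 was shared in that library by 6 of the 10 genes and by 35.8% of all genes tested. The part of kidney RNA in the Spp1 level of libraries 2 and 3 was not tested.

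**Figure D2:**
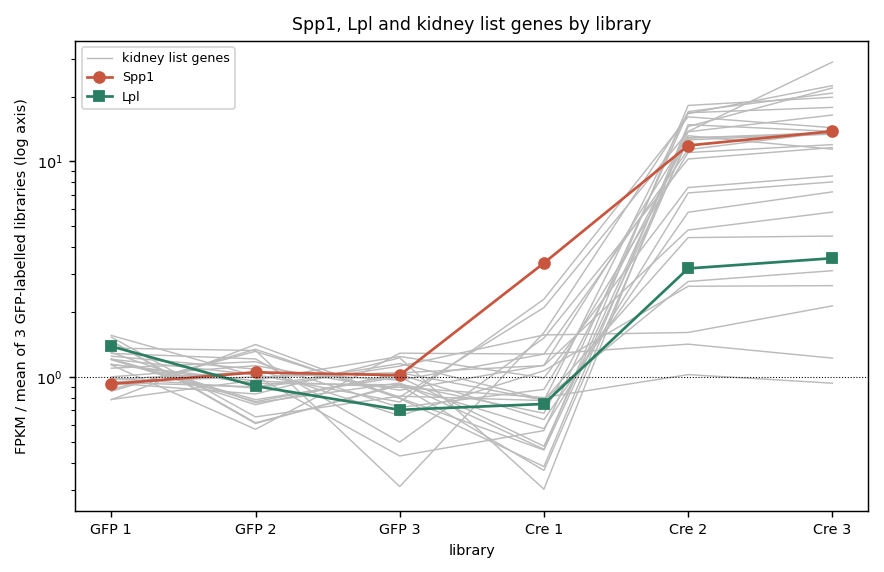
FPKM in each library (horizontal axis) divided by the mean of the 3 GFP-labelled libraries (vertical axis, log scale) for Spp1 (red circles), Lpl (green squares) and kidney genes with no library at 0 (grey lines). In Cre-labelled library 1, Spp1 is at 3.38 while the kidney genes have a median of 0.795, and in libraries 2 and 3 Spp1 is at 11.9 and 13.8 beside kidney medians of 11.97 and 12.7.

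Set apart, the Cre-labelled libraries gave different values for Spp1 on each side. Library 1 alone against the GFP-labelled libraries gave a log2 difference of 1.71 ± 0.19 (SE) and an adjusted p of 0.405 in edgeR, a fit in which the spread of the GFP-labelled libraries stands for that of the lone library and 0.0168% of genes were called. Libraries 2 and 3 without library 1 gave 3.66 ± 0.10 (SE) with an adjusted p of 0.000166 in edgeR, where 1.36% of genes were called (1.12% higher and 0.234% lower). In that fit 2 of the 10 genes were called, Spp1 and Lpl, both higher. By sign alone, 7 of the 10 were higher and 3 lower. Leaving out any other library kept the Spp1 difference between 2.91 and 3.27 on the log2 scale with adjusted p from 0.1002 to 0.301 in edgeR.

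Cd9, Cd68, Lgals3 and Clec7a, which encode surface and lysosomal proteins, also had no overlap between the groups, with smaller differences than Spp1. Cd9 (ENSMUSG00000030342, chromosome 6, 125460266 to 125494791, minus strand) encodes a tetraspanin that organises integrins in the membrane. It stood at 14.2, 15.5 and 16.3 FPKM in the GFP-labelled libraries and at 22.5, 19.3 and 19.2 FPKM in the Cre-labelled ones. Here Cre-labelled library 1, with the low kidney levels, was the highest of the 6, and the other Cre-labelled libraries were almost equal. The means were 15.3 ± 1.03 and 20.3 ± 1.86 FPKM (SD, n = 3 each), the log2 difference was 0.37 with a 95% interval from 0.17 to 0.57, and the adjusted p was 0.111 in edgeR and 0.00748 in DESeq2. The difference was 0.51 on the log2 scale for Cre-labelled library 1 alone and 0.31 for libraries 2 and 3. Antisense gene models, Gm26728 and Gm28809, overlap Cd9 and held at most 17 counts in a library, while 10.8% of the words of Cd9 recur in other genes, so that its reads may be split in part.

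Cd68 (ENSMUSG00000018774, chromosome 11, 69664213 to 69666153, minus strand) encodes macrosialin, a glycoprotein of phagocyte lysosomes. It stood at 4.62, 5.49 and 4.96 FPKM in the GFP-labelled libraries and at 5.61, 6.40 and 6.76 FPKM in the Cre-labelled ones. The lowest Cre-labelled library, number 1, was only just above the highest GFP-labelled library. The means were 5.02 ± 0.438 and 6.26 ± 0.587 FPKM (SD, n = 3 each), and the log2 difference of 0.28 had a 95% interval from -0.08 to 0.64 (adjusted p of 0.405 in edgeR).

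Lgals3 (ENSMUSG00000050335, chromosome 14, 47367751 to 47386160, plus strand) encodes galectin-3, a lectin that binds galactosides on cell surfaces and on damaged lysosomes. Its levels were 0.947, 1.61 and 1.04 FPKM in the GFP-labelled libraries and 1.72, 2.39 and 2.24 FPKM in the Cre-labelled ones. Cre-labelled library 1 was the lowest of its group and lay close to GFP-labelled library 2. The means were 1.20 ± 0.362 and 2.12 ± 0.349 FPKM (SD, n = 3 each), with a log2 difference of 0.78, a 95% interval from 0.14 to 1.43 and an adjusted p of 0.217 in edgeR.

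Clec7a (ENSMUSG00000079293, chromosome 6, 129461591 to 129472779, minus strand) encodes Dectin-1, a receptor for fungal beta-glucans. It was low in all libraries, at 0.508, 0.438 and 0.288 FPKM under the GFP label and at 0.577, 0.814 and 0.562 FPKM under the Cre label. The groups did not overlap, but the gap between them was smaller than the spread within either. The log2 difference of 0.62 had a 95% interval from -0.12 to 1.37 and an adjusted p of 0.371 in edgeR.

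Apoe and Lpl are the lipid genes of the set. Apoe (ENSMUSG00000002985, chromosome 7, 19696109 to 19699188, minus strand) encodes apolipoprotein E, the main lipid carrier of the brain, and had the highest level of the 10 genes in each library. It stood at 777, 779 and 826 FPKM in the GFP-labelled libraries and at 918, 764 and 820.2 FPKM in the Cre-labelled ones. Cre-labelled library 1 was the highest and Cre-labelled library 2 the lowest of all 6, so the groups overlapped. The log2 difference was 0.03 with a 95% interval from -0.13 to 0.19 (adjusted p of 0.863 in edgeR), and it was -0.02 without Cre-labelled library 1. Summed astrocyte markers were also highest in that library, at 709 FPKM against 627 to 642 in the other 5, and their part in the Apoe level was not tested.

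Lpl (ENSMUSG00000015568, chromosome 8, 68880491 to 68906934, plus strand) encodes lipoprotein lipase, which frees fatty acids from triglyceride-rich particles. It stood at 0.585, 0.383 and 0.297 FPKM in the GFP-labelled libraries and at 0.316, 1.34 and 1.5 FPKM in the Cre-labelled ones. Only Cre-labelled libraries 2 and 3 were high, and Cre-labelled library 1 lay within the range of the GFP-labelled libraries. The log2 difference was 1.29 with a 95% interval from 0.05 to 2.52 and an adjusted p of 0.272 in edgeR. It was -0.46 for Cre-labelled library 1 alone, and 1.73 for libraries 2 and 3, where the adjusted p was 0.0467 in edgeR. Beside Lpl and Spp1, Cd68 and Lgals3 also had their highest levels in Cre-labelled libraries 2 and 3, an order found in 4 of the 10 genes, in 10.8% of all genes tested and in 28 of the 30 kidney genes. Muscle genes, whose tissue also expresses Lpl, summed to 15.7 and 114 FPKM in these libraries and to at most 8.13 in the other 4. Fabp4, a gene of fat cells, which also make Lpl, stood at 0.0571, 0.0800 and 0.0422 FPKM under the GFP label and at 0.0274, 0.356 and 0.391 FPKM under the Cre label. The part of kidney, muscle or fat RNA in the Lpl level was not tested.

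Gpnmb, Itgax and Cst7 gave no ordered difference. Gpnmb (ENSMUSG00000029816, chromosome 6, 49036546 to 49070929, plus strand), a transmembrane glycoprotein gene of lipid-laden macrophages, stood at 0.561, 0.923 and 0.626 FPKM under the GFP label and at 0.687, 0.338 and 0.514 FPKM under the Cre label. Its ranges overlapped, and the log2 difference of -0.49 had a 95% interval from -1.19 to 0.21. Itgax (ENSMUSG00000030789, chromosome 7, 128129547 to 128150657, plus strand), the CD11c integrin gene, stood at 0.267, 0.283 and 0.198 FPKM against 0.0696, 0.124 and 0.286 FPKM. The lowest value was that of Cre-labelled library 1 and the highest that of Cre-labelled library 3, so that the whole range lay within the Cre label, and the log2 difference of -0.68 had a 95% interval from -1.85 to 0.49. It was -1.37 without Cre-labelled library 3, and -1.84 for Cre-labelled library 1 alone with an adjusted p of 0.463 in edgeR. Itgax shares 10.7% of its words with the neighbouring gene Itgad, which held at most 16 counts in a library.

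Cst7 (ENSMUSG00000068129, chromosome 2, 150570415 to 150578944, plus strand), the cystatin F gene and an inhibitor of lysosomal cathepsins, had counts of 12, 10 and 0 under the GFP label and of 10, 9 and 27 under the Cre label. In FPKM these were 0.224, 0.209 and 0 against 0.205, 0.165 and 0.425. A count of 0 in GFP-labelled library 3 allows a level of up to 0.0607 CPM, counts scaled to library size (3 counts, counting error only), and the other 5 libraries lay above that level. Cre-labelled library 3 was the highest, and the other Cre-labelled libraries lay at or below GFP-labelled libraries 1 and 2. The log2 difference of 0.84 had a 95% interval from -1.55 to 3.23, an adjusted p of 0.732 in edgeR and no adjusted p in DESeq2. With a library left out it ranged from 0.24 (no GFP-labelled library 3) to 1.36 (no GFP-labelled library 1), and it was 0.33 when Cre-labelled library 3 was omitted, so that no difference was detectable at this depth.

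**Figure D3:**
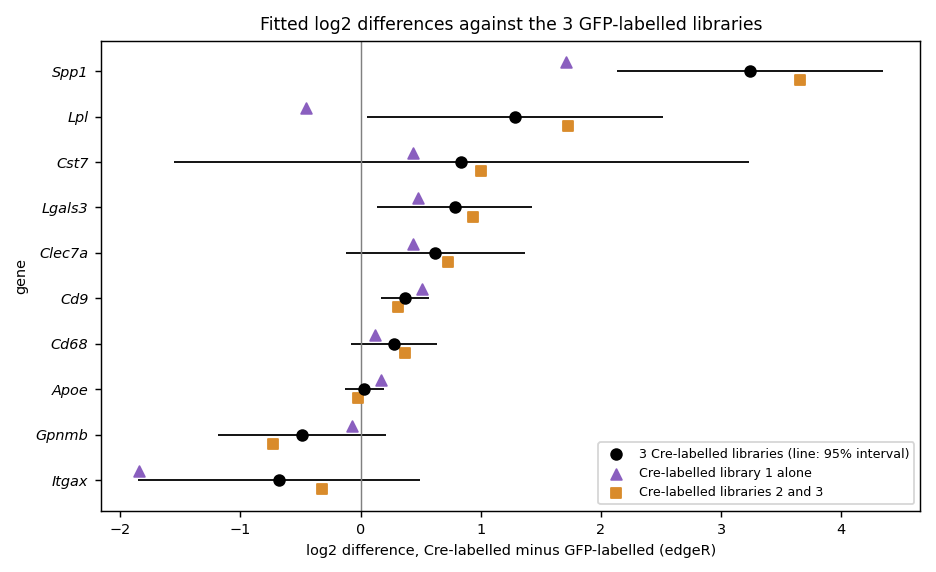
Fitted log2 differences of the 10 genes between labels (horizontal axis; Cre-labelled minus GFP-labelled, edgeR), for all 3 Cre-labelled libraries (black, line the 95% interval), library 1 alone (purple triangles) and libraries 2 and 3 (orange squares). Spp1 is at 3.24, 1.71 and 3.66 in these fits, while Lpl is at 1.29, -0.46 and 1.73 and changes side.

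Per length (FPKM), the levels of the 10 genes in the GFP-labelled libraries were, from high to low, those of Apoe, Cd9, Cd68, Spp1, Lgals3, Gpnmb, Lpl, Clec7a, Itgax and Cst7. From Apoe to Lgals3 the range of each gene lay above that of the next in order, whereas Gpnmb overlapped with Lpl, Lpl with Clec7a, and Itgax with Cst7. In the Cre-labelled libraries Spp1 ranked second, above Cd9 by mean, but its range from 10.5 to 42.7 FPKM overlapped the range of Cd9 from 19.2 to 22.5 FPKM. Apoe remained first in both groups.

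The promoters of Spp1, Cd9 and Cd68, the 3 most abundant of the genes without overlap between groups, are printed to show how differently their upstream 250 bases are built. Each window ends at the base before the start site of RefSeq on GRCm38.p6 and is given 5′ to 3′ on the strand of the gene, with matches to searched motifs in capitals. The Spp1 window is chr5:104434861-104435110 (plus), the Cd9 window is chr6:125494761-125495010 (minus) and the Cd68 window is chr11:69666171-69666420 (minus).
Spp1: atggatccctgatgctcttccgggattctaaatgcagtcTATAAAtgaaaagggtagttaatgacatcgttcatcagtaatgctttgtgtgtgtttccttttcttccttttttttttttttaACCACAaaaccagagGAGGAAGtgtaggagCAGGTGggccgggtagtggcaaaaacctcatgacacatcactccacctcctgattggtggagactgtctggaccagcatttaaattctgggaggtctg
Cd9: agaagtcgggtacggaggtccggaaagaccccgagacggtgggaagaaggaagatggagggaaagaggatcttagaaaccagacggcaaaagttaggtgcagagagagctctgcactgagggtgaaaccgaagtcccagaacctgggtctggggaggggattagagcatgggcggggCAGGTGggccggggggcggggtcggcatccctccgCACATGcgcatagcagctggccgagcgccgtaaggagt
Cd68: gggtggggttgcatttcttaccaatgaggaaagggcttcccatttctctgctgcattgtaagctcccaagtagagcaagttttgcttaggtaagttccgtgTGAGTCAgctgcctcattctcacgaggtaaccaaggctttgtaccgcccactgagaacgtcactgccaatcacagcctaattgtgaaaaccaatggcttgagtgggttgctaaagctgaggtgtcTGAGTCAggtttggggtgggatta
The motifs, searched on both strands, included GAGGAAG for PU.1, a factor that myeloid cells depend on. The letters TGANTCA were searched for AP-1, a factor of cell activation. The letters CANGTG stood for an E-box in a loose form, which is not particular to MITF and TFE factors. The matches read CAGGTG in Spp1 and Lgals3, CAGGTG and CACATG in Cd9, and CAAGTG in Cst7. For Lgals3 the RefSeq start site lies 6109 bases downstream of the deposited start of the gene, so its window may not be the promoter of the gene as counted. The letters ACCACA stood for RUNX factors. The letters TATAAA, the core of the TATA box, were counted anywhere in the window and mark no working TATA box. The Spp1 window held PU.1, RUNX, E-box and TATA box letters, first bases 113, 128, 98 and 211 bases upstream of the start. The Cd9 window held 2 E-boxes, and the Cd68 window held AP-1 letters at 149 and 24 bases. Of the 9 genes with a RefSeq window, 1 held the PU.1 letters and 2 those of AP-1 (Cd68 and Itgax). The E-box letters stood in 4, the RUNX letters in 3 and the TATA box letters in 1. The same letters stood in 10.6%, 6.75%, 39.5%, 14% and 12.4% of all 32851 windows of that length. A match is a description of the letters and names no bound factor.

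Other disease-associated microglia genes differed less at the median than the 10. Of 35 tested genes of this programme, 22 were higher and 13 lower under the Cre label with a median log2 difference of 0.12, and 0 passed edgeR's threshold, while 10 were higher and 1 lower at an unadjusted p under 0.05 and DESeq2 called 6 higher and 1 lower. Over all genes these shares were 8.11% and 9.11% at the unadjusted p, and 2.85% and 4.03% in DESeq2. Tyrobp, the signalling adaptor of TREM2, stood at 6.51, 5.80 and 7.42 FPKM under the GFP label and at 12.2, 11.1 and 11.7 FPKM under the Cre label. Its level was similar in the 3 Cre-labelled libraries, with library 1 the highest, and the log2 difference of 0.79 had an adjusted p of 0.0938 in edgeR and 0.00187 in DESeq2. Timp2, a metalloproteinase inhibitor, was lower in each Cre-labelled library (138 to 151 FPKM) than in each GFP-labelled one (169 to 180.3), with a log2 difference of -0.33 and an adjusted p of 0.0793 in edgeR and 7.28e-06 in DESeq2. Trem2, named after its values were seen, stood at 1.29 to 1.54 FPKM against 1.64 to 2.07 FPKM. In FPKM 9 genes of this list had every Cre-labelled library above every GFP-labelled one and 1 had it below, beside 14.1% and 8.8% of all genes tested.

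Binding partners of the secreted and lipid genes were divided, and 0 of the 24 tested passed edgeR's threshold. At an unadjusted p under 0.05 in edgeR, 2 were higher and 4 lower, beside 8.11% and 9.11% of all genes. Among 10 receptors of osteopontin, 5 were higher and 5 lower, and the median log2 difference was 0.00; Itga4, an integrin chain of leukocytes, was at -0.40 with an adjusted p of 0.240 in edgeR. Among 10 genes of ApoE receptors and lipidation, 4 were higher and 6 lower. Vldlr, a receptor gene of ApoE, had 7.19, 6.97 and 6.51 FPKM under the GFP label and 6.12, 5.70 and 5.74 FPKM under the Cre label, and its log2 difference of -0.27 had an adjusted p of 0.0995 in edgeR. DESeq2 called Vldlr lower, with an adjusted p of 0.00660. Of the cofactors of lipoprotein lipase, 4 of 8 were tested, 2 higher and 2 lower, led by Angptl4, an inhibitor of the enzyme, at 0.85 on the log2 scale (adjusted p of 0.226 in edgeR).

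Of 32 entries in the lists of surface, lysosome and regulator partners, 24 were higher and 8 lower, with 0 calls in edgeR. At an unadjusted p under 0.05, 10 entries were higher and 1 lower, and DESeq2 called 3 higher (Cd63, Cst3 and Itgb2) and 1 lower (Igsf8), beside 8.11%, 9.11%, 2.85% and 4.03% of all genes in the same order. Among 8 tetraspanins and their partners, 7 were higher and 1 lower, with a median log2 difference of 0.28 and 5 with every Cre-labelled library above, against 14.1% of all genes. Cd63, a tetraspanin of late endosomes, stood at 15.7, 18.0 and 18.8 FPKM against 21.4, 23.2 and 25.2 FPKM (adjusted p of 0.125 in edgeR). Igsf8, which encodes a CD9 partner, was the lower gene, with 32.8 to 33.6 FPKM against 27.0 to 29.5 FPKM (adjusted p of 0.0910 in edgeR). Of 5 genes of cystatins and their targets, 4 were higher. Cst3, the cystatin C gene, stood at 396, 465 and 489 FPKM against 594, 567 and 584 FPKM, with an adjusted p of 0.119 in edgeR and 0.000683 in DESeq2. Of the 4 integrin partners of CD11c, 3 were higher, Itgb2 among them at 0.65 on the log2 scale. Of the 6 genes of Dectin-1 and Fc receptor signalling, 5 were higher, with Fcer1g at 0.52 and Syk at 0.66. For Cre-labelled library 1 alone Itgb2 was at 0.12 and Syk at 0.069, and for libraries 2 and 3 at 0.875 and 0.897. Fcer1g was at 0.55 and 0.519 in these fits. The other galectins were 2 higher and 3 lower, with Lgals1 at 0.89 on the log2 scale. Lgals1 was at 0.445 for Cre-labelled library 1 alone and at 1.08 for libraries 2 and 3. The MITF and TFE factors were 3 higher and 1 lower. Cd63, Ctsl and Lgals3bp also stand in the list of other disease-associated microglia genes, and Itgam in that of homeostatic microglia.

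**Figure D4:**
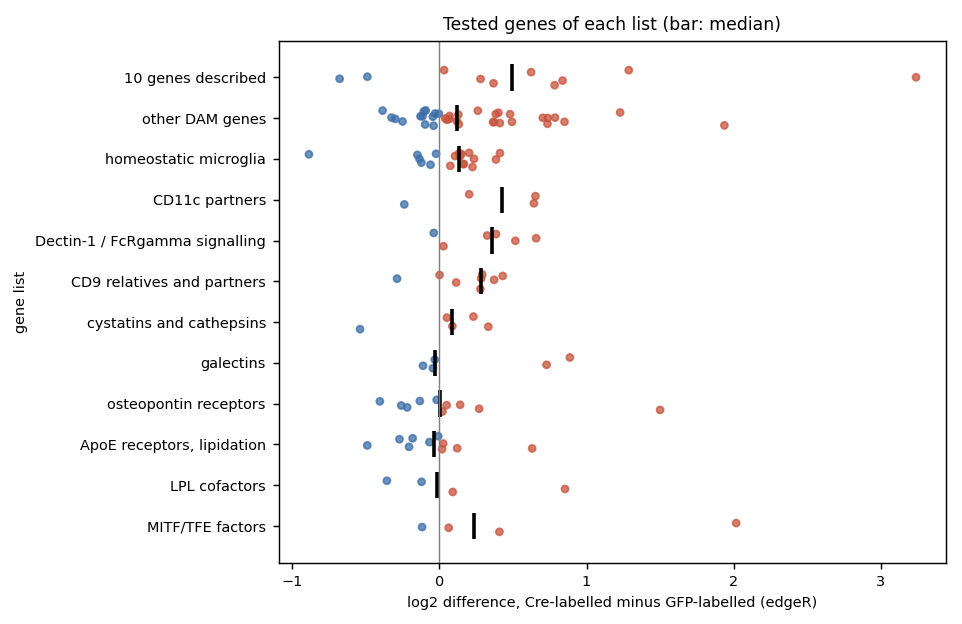
Fitted log2 differences (horizontal axis; Cre-labelled minus GFP-labelled, edgeR) of the tested genes of each list (vertical axis), red above 0 and blue below 0, with a black bar at the median. The 10 genes described have a median of 0.50, other disease-associated microglia genes 0.12 and osteopontin receptors 0.00.

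Markers of the cells that could carry these genes differed between libraries, and their part in the levels above was not tested. Summed homeostatic microglia markers stood at 170, 172 and 154 FPKM under the GFP label and at 186, 179 and 171 FPKM under the Cre label. Of these 18 genes, 12 were higher, with a median log2 difference of 0.14, and 0 passed in edgeR or DESeq2. At an unadjusted p under 0.05 in edgeR 3 were higher, beside 8.11% of all genes. In FPKM, every Cre-labelled library was above every GFP-labelled one for 6 of the 18, and below for 0. Over all genes tested, these shares were 14.1% and 8.8%. P2ry12, a purinergic receptor gene named after its values were seen, had 6.68, 7.39 and 5.75 FPKM against 7.54, 8.81 and 7.57 FPKM. Border macrophage markers summed to 3.32, 4.36 and 4.59 FPKM against 4.51, 5.33 and 5.62 FPKM, and no marker of either list was at 0 counts in every library. Blood leukocyte markers, led by the neutrophil genes S100a8 and S100a9, summed to 58.4 to 78.7 FPKM under the GFP label and to 64.0 FPKM in Cre-labelled library 1, but to 159 and 211 FPKM in Cre-labelled libraries 2 and 3. Choroid plexus markers were also highest in those libraries, at 10.3 and 16.4 FPKM against 6.09 to 7.21 FPKM in the other 4. Kl stands in both the choroid plexus list and the kidney list. Markers of PVH neurons summed to 306, 838 and 889 FPKM under the GFP label and to 186, 248.9 and 645 FPKM under the Cre label. All 8 of these genes were lower, with a median log2 difference of -0.67, and 0 passed in edgeR. At an unadjusted p under 0.05 in edgeR 4 were lower, beside 9.11% of all genes. DESeq2 called Crh and Otp lower, beside 4.03% of all genes. Pan-neuronal markers were lower in each Cre-labelled library, with 615 to 691 FPKM against 751 to 776 FPKM and 8 of 8 genes lower. Of these, 0 passed in edgeR and 5 were lower at its unadjusted p under 0.05, beside 9.11% of all genes. DESeq2 called 4 lower (Eno2, Map2, Rbfox3 and Syn1), beside 4.03% of all genes. Endothelial and mural sums were 53.3 to 59.6 FPKM under the GFP label and 54.0 to 63.0 FPKM under the Cre label. Oligodendrocyte and fibroblast sums were 383 to 465 and 14.9 to 16.2 FPKM under the GFP label, and 395 to 465 and 16.4 to 19.5 FPKM under the Cre label. Testis genes summed to 612 FPKM in the first GFP-labelled library, against at most 17.1 FPKM in the other 5, and Aif1, a microglia marker, was at 7.39 FPKM there and at 1.49 to 2.33 FPKM elsewhere.

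**Figure D5:**
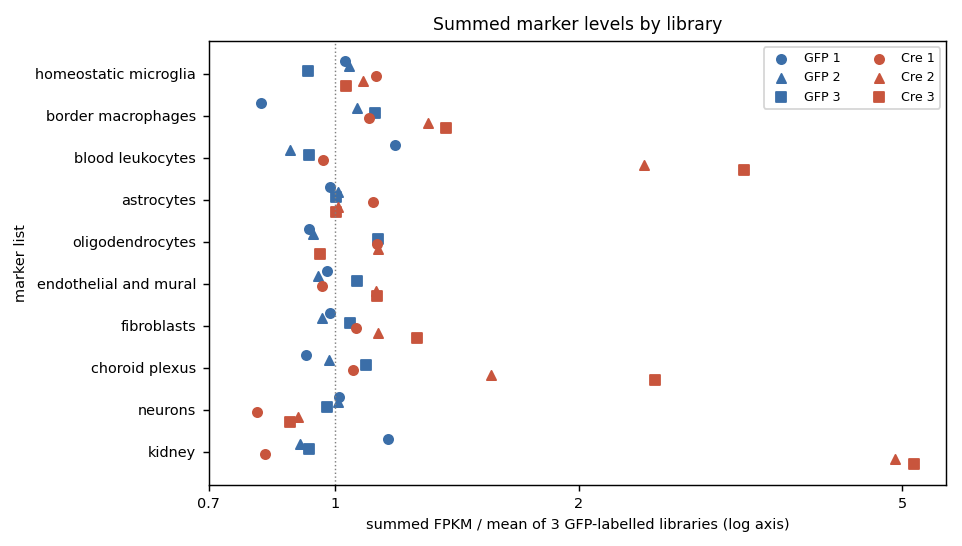
Summed FPKM of each marker list (vertical axis) divided by the mean of the 3 GFP-labelled libraries (horizontal axis, log scale), with a point per library, blue for GFP-labelled and red for Cre-labelled. Kidney and blood leukocyte sums are high in Cre-labelled libraries 2 and 3 only, while homeostatic microglia sums lie between 154 and 186 FPKM in all 6 libraries.

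Genes with the pattern most like that of Spp1 were sought by Pearson correlation of log2(CPM + 1) over the 6 libraries, among the 14279 genes that averaged 1 FPKM or more. This is a description, since the 6 libraries share the same group and kidney order. The highest were Reep3 (0.998) and Rab5c (0.998), then Tpt1 (0.997), Fmo1 (0.995) and Vamp8 (0.994), and 385 genes reached 0.9. Rab5c, an early endosome GTPase gene, ran from 41.0 to 41.8 FPKM in the GFP-labelled libraries and stood at 47.4, 50.8 and 51.4 FPKM in the Cre-labelled ones. Fmo1, which encodes a flavin monooxygenase abundant in the kidney, stood at 1.98 to 2.03 FPKM and at 2.90, 4.23 and 4.95 FPKM. Of the 10 genes, Cd68 correlated with Spp1 at 0.916, Lgals3 at 0.893, Cd9 at 0.704 and Apoe at -0.130. Lpl, Cst7, Itgax, Clec7a and Gpnmb averaged below 1 FPKM and were not compared.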

How the data were processed

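Gene-level counts and FPKM of 6 mouse PVH libraries were used, 3 for each virus. Cutadapt, HISAT2 and StringTie are named in the submitters' processing notes, without versions or roles; for the counting tool, strand and molecular identifiers nothing is stated in the labels. The notes name mm9, but 91.3% of 35024 gene IDs shared with GENCODE M21 have its GRCm38 coordinates, which are the coordinates of the deposited table. The deposited counts are whole numbers per gene, and the deposited FPKM values were made by the authors per kilobase and library size; 93.8% of 17078 genes imply a length that agrees between libraries within a coefficient of variation of 1%. No column of another sample was present (0).

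The counts were tested with edgeR 4.0.16 in R 4.3.3 (TMM, filterByExpr, quasi-likelihood test, two-sided, Benjamini-Hochberg over 20865 genes, threshold 0.05), after a check on simulated data. The biological coefficient of variation was 27.1%. Alternatives were DESeq2 1.42.0, median-ratio size factors, no filter, a replicate block, leaving out each library, Cre-labelled library 1 alone, and limma 3.58.1 on log2(FPKM + 0.5) or log2(FPKM + 0.1) for genes averaging 1 FPKM or more, or for all genes. SE was the log2 difference divided by the root of the F statistic. Named genes were the 10 members, Ruvbl2, the 2 smallest p of each list, the 4 most abundant kidney genes and the 5 genes most like Spp1; Umod, Oxt, Trem2, P2ry12 and Aif1 were added once their values were known. Not every gene of this rule is given in the text. The members and lists were chosen with earlier results of these data known. Promoters are RefSeq windows, and shared words were counted in GENCODE M21 transcripts.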

Additional observations from a re-analysis of the deposited data

How the results depend on the processing

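The 10 genes were called 0 times in edgeR, and 2 times by DESeq2 (Cd9 and Spp1). Leaving out each library gave 0 to 2 calls, the 2 being Lpl and Spp1 without Cre-labelled library 1. Over all genes the count of 2 became 1436 with DESeq2, 9 with median-ratio size factors, 1 without a filter, 1 with limma at either pseudocount, 4 for Cre-labelled library 1 alone and 1 to 296 when each library was left out, with 296 (245 higher, 51 lower) without Cre-labelled library 1. The median log2 difference of the 10 genes, 0.50, ranged from 0.35 to 0.55 when each library was left out, and was 0.30 for Cre-labelled library 1 alone and 0.31 with limma without a filter. The filter of limma on FPKM leaves out Lpl, Cst7, Itgax, Clec7a and Gpnmb. When each library was left out, Apoe ranged from -0.02 (without Cre-labelled library 1) to 0.10, and Ruvbl2 from -0.029 (without GFP-labelled library 2) to 0.18, on the log2 scale. For Cre-labelled library 1 alone, the sign turned for Lpl (-0.46), Itgb6 (-0.45), S100a9 (-0.11), Pecam1 (-0.02), Kap (-1.48), Pck1 (-0.59), Myh4 (-0.65) and Fabp4 (-1.27). The cause of these changes was not tested. Of 876 values for 65 named genes under the alternatives, 818 kept direction and side of the threshold, 42 came to pass it, 10 turned, and 6 from DESeq2 had no adjusted p. Same-numbered libraries did not deviate together (correlations of -0.04, 0.01 and -0.02). The labels state no pairing, and such correlations cannot exclude one, so whether the numbers pair the libraries is not known. With the replicate block 3 genes were called, none of the 10, and Spp1 was at 3.02 with an adjusted p of 0.154 in edgeR. Depth limits Cst7, with 0 to 27 counts.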
